A study of Mus with 12 samples.

Results

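The 9 genes described are the bone morphogenetic proteins Bmp2, Bmp4 and Bmp7, the activin subunits Inhba and Inhbb, and the secreted antagonists Fst, Fstl3, Grem1 and Nog. Each was taken from the deposited gene tables as the row that carries its name and an Ensembl transcript, which gave 9 of 87235 rows in the table of the implantation stage and 9 of 40787 rows in the table of the labor stage. All 9 passed the filter on low values, set at a mean FPKM of 0.1 across the 6 libraries of a table, in both tables. FPKM is the number of fragments per kilobase of transcript, scaled to the depth of the library.

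The study sequenced RNA of the whole uterus of ICR mice, an outbred stock, mated at about 8 weeks of age. The mice fell into 4 groups of 3, named by the day after mating on which they were taken (E0.5 and E4.5 for the implantation stage, E15.5 and E18.5 for the labor stage), with no other treatment and no transgene or mutation named. The study asked which transcripts differ with the level of progesterone, and for this it set E0.5 against E4.5 around implantation and E18.5 against E15.5 before labor. Each library came from the uterus of 1 mouse, and all tissues of the organ, with whatever implantation or placental tissue was left on it, were in the same sample.

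Bone morphogenetic proteins and activins are secreted dimers of the transforming growth factor beta family. They bind pairs of serine/threonine kinase receptors, which phosphorylate SMAD proteins that enter the nucleus, with SMAD1, SMAD5 and SMAD9 serving the BMP ligands and SMAD2 and SMAD3 the activins. Follistatin (Fst) and follistatin-like 3 (Fstl3) hold activins away from their receptors, and noggin (Nog) and gremlin 1 (Grem1) do the same for BMPs. In the mouse uterus, Bmp2 is known for its need in decidualization, the change of the endometrial stroma around an implanting embryo, and activin and inhibin subunits are also made in large amounts by the granulosa cells of the ovary.

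The libraries of E0.5 and E4.5 held between 58020989 and 70906881 counts, while the table of E15.5 and E18.5 holds FPKM only and its depth is unknown. A library of E4.5, replicate 3, stood apart from the others. The 11 ovary markers summed to 727 FPKM there and to between 5.55 and 7.50 FPKM in the other 5 libraries of its table. All 11 were above 0 in that library, and Fshr, Cyp19a1, Zp3 and Oosp1 were at 0 in the other 5. The sum was carried by Cyp11a1 (378 FPKM, in a row merged with Gm17322) and Star (238 FPKM), both of steroid synthesis. The 10 uterus markers were all above 0 in every library, but their sum was 208 FPKM in that library against 663 to 898 FPKM in the other 5. The 5 oviduct markers summed to 96.3 FPKM in it and to between 9.56 and 37.2 FPKM in the others. Most of the 96.3 FPKM was from Ovgp1 (69.6 FPKM, in a row merged with Wdr77 and Gm42890). Foxj1, Dnah5 and Ccdc39 were also highest there, while Tppp3 had 6.74 FPKM there and up to 19.1 FPKM at E0.5. Values that rest on this library are given with and without it. In bulk tissue such as this, fewer cells of a type and less RNA per cell cannot be told apart.

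In the comparison of E0.5 with E4.5, Fst and Bmp2 were lower at E0.5, by 13.7 and 10.8 times between the group means, and both passed the adjusted p. Nog was 19.2 times lower at E0.5 between the means, without overlap, and missed the adjusted p. Inhba and Inhbb had their highest values of the 6 libraries in E4.5 replicate 3 and their lowest in the other E4.5 libraries, so that the sign of both differences turned on that library. Bmp4 was the only one of the 9 with a positive log2 fold change over all 6 libraries. Fold changes here are E0.5 relative to E4.5, from edgeR's quasi-likelihood test on counts with Benjamini-Hochberg adjustment over all 59732 rows tested. "Lower" or "higher" beside a value describes the measurements. At E0.5 these words are relative to E4.5, the later day. A gene is said to pass the adjusted p where it was under 0.05.

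**Figure D1:**
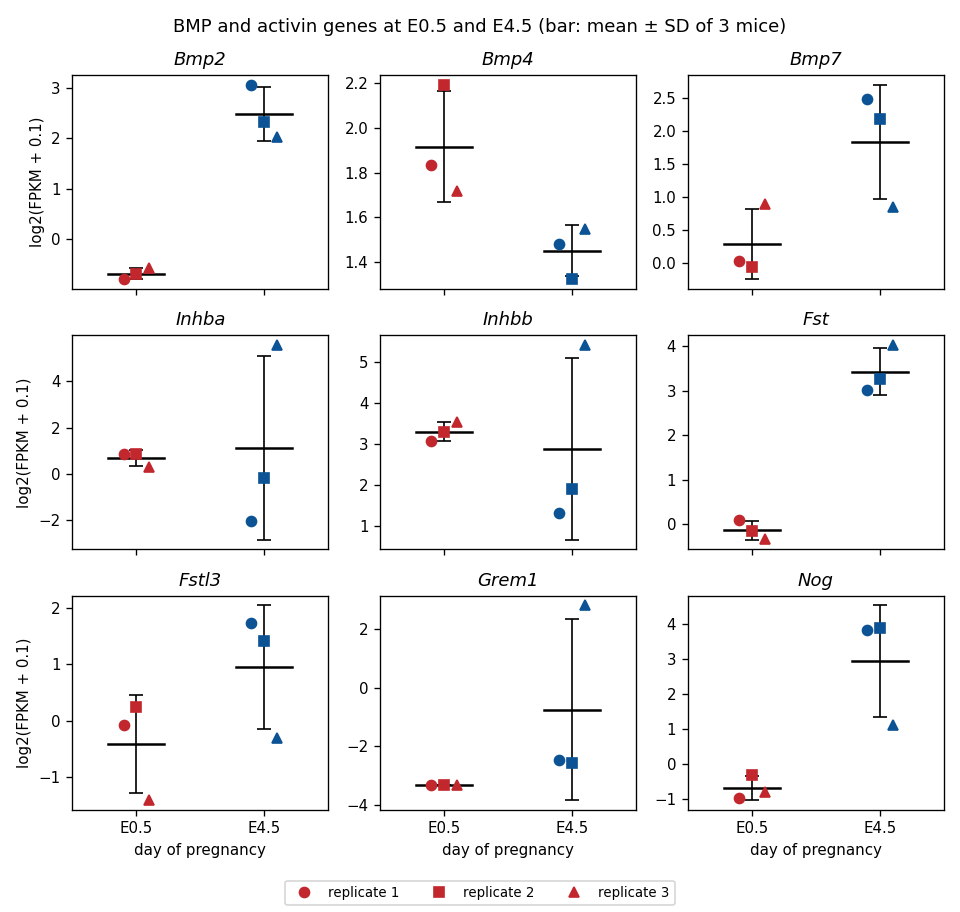
Expression of the 9 genes in the 6 libraries of the implantation stage, as log2(FPKM + 0.1) on the vertical axis, whose range differs between panels, against the day of pregnancy. Symbols are single mice (circle, square and triangle for replicates 1, 2 and 3), the line is the mean of 3 mice on this scale and the bar its SD. Fst, Bmp2 and Nog are separated between the days, and E4.5 replicate 3 is the highest point for Inhba, Inhbb, Fst and Grem1 and the lowest E4.5 point for Bmp2, Bmp7, Fstl3 and Nog.

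Among the BMP ligands, Bmp2 on chromosome 2 (GRCm38, 133552159 to 133562885, plus strand) had 0.484, 0.521 and 0.580 FPKM in the 3 mice of E0.5 and 8.25, 4.92 and 3.97 FPKM in those of E4.5. The means were 0.528 ± 0.0483 FPKM (SD, n = 3) and 5.71 ± 2.25 FPKM (SD, n = 3), and every E4.5 mouse was above every E0.5 mouse. Bmp2 was lower at E0.5, with a log2 fold change of -3.44 (standard error, SE, 0.36, adjusted p = 0.0187 by edgeR). Without E4.5 replicate 3 the log2 fold change was -3.66 (adjusted p = 0.00201), whereas the adjusted p lay between 0.0979 and 0.127 when any of the E0.5 mice was left out.

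Bmp4, on chromosome 14 (46383520 to 46390669, minus strand), a ligand close in sequence to Bmp2, had 3.47, 4.48 and 3.19 FPKM in the E0.5 mice and 2.69, 2.40 and 2.82 FPKM in the E4.5 mice. The groups did not overlap, but the difference was small, with a log2 fold change of 0.51 (SE 0.23, adjusted p = 0.318 by edgeR). Leaving out E4.5 replicate 3 changed little here, as its value lay beside the others of its day.

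Bmp7, on chromosome 2 (172868012 to 172940321, minus strand), had 0.922, 0.859 and 1.76 FPKM in the E0.5 mice and 5.46, 4.40 and 1.70 FPKM in the E4.5 mice. The groups overlapped, since replicate 3 of E4.5 lay below replicate 3 of E0.5. Its log2 fold change was -1.71 (SE 0.51, adjusted p = 0.159 by edgeR), and without E4.5 replicate 3 it was -2.08 with an adjusted p of 0.0191. A pair of further rows named for Bmp7 held no Ensembl transcript. They lie within its span, the smaller (172888261 to 172889110) with no strand and the larger (172908633 to 172910833) on the plus strand, opposite to the gene. The smaller had 0.512, 0.661 and 2.67 FPKM in the E0.5 mice and 6.69, 7.16 and 1.02 FPKM in the E4.5 mice, and so, like the gene, was high in replicates 1 and 2 of E4.5 and low in replicate 3. How reads of overlapping rows were divided is not given in the sources used here.

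The activin subunits spread widely among the E4.5 mice. Inhba, which encodes the beta A subunit, lies on chromosome 13 (16011195 to 16031621, plus strand). It had 1.74, 1.74 and 1.12 FPKM in the E0.5 mice and 0.149, 0.779 and 47.0 FPKM in the E4.5 mice. Thus the lowest and the highest library were both of E4.5, with 99 and 29437 counts for the gene, and the group mean of 16.0 ± 26.9 FPKM (SD, n = 3) had an SD larger than itself. The log2 fold change was -3.32 (SE 1.79, adjusted p = 0.385 by edgeR) with all libraries, and 1.73 (SE 0.62, adjusted p = 0.171) without E4.5 replicate 3.

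Inhbb, the beta B subunit, lies on chromosome 1 (119415465 to 119422248, minus strand). It had 8.27, 9.79 and 11.6 FPKM in the E0.5 mice and 2.39, 3.66 and 42.8 FPKM in the E4.5 mice. Replicates 1 and 2 of E4.5 were below every E0.5 mouse and replicate 3 was above every one. With all libraries the log2 fold change was -0.67 (SE 1.0, adjusted p = 0.774 by edgeR), and it was 1.70 (SE 0.25, adjusted p = 0.0129) without E4.5 replicate 3. The 11 ovary markers moved with both genes, as they were high in the same library, and their part in the values of Inhba and Inhbb was not tested.

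Genes whose products belong to ovarian follicles were high in E4.5 replicate 3 as well. Inha, the alpha subunit that turns an activin into an inhibin, had 159 FPKM in it and between 1.69 and 2.39 FPKM in the other 5 libraries. Amh, the anti-Müllerian hormone of granulosa cells, had 18.9 FPKM there and at most 0.904 FPKM elsewhere. Bmp15, an oocyte factor, had 8.03 FPKM there and at most 0.173 FPKM elsewhere. A row on the minus strand named for Inhba (16017849 to 16021119), opposite to the gene and without an Ensembl transcript, had 5.61 FPKM there and between 0.0984 and 0.692 FPKM elsewhere.

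**Figure D2:**
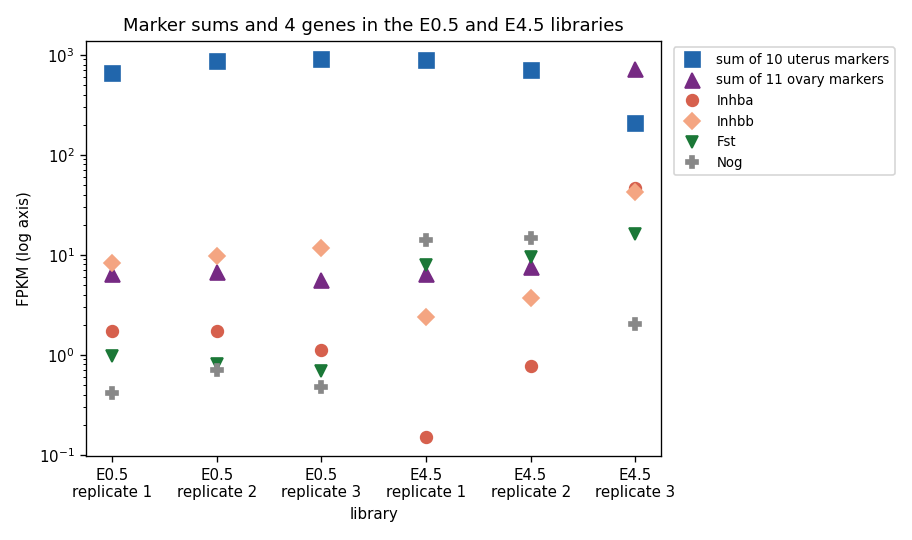
Summed FPKM of the 10 uterus markers and of the 11 ovary markers, with the FPKM of Inhba, Inhbb, Fst and Nog, on a log axis for each of the 6 libraries of E0.5 and E4.5; each symbol is 1 library. In E4.5 replicate 3 the ovary sum reaches 727 FPKM and the uterus sum is 208 FPKM, while Inhba and Inhbb reach 47.0 and 42.8 FPKM and Nog is at 2.05 FPKM, against 14.0 and 14.7 FPKM in the other mice of E4.5.

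Of the antagonists of activin, Fst on chromosome 13 (114452290 to 114458951, minus strand) had 0.963, 0.799 and 0.693 FPKM in the E0.5 mice and 7.94, 9.46 and 16.2 FPKM in the E4.5 mice. All E4.5 mice were above all E0.5 mice, replicate 3 being the highest. The means were 0.818 ± 0.136 FPKM (SD, n = 3) and 11.2 ± 4.37 FPKM (SD, n = 3). Fst was lower at E0.5, with a log2 fold change of -3.74 (SE 0.31, adjusted p = 0.0113 by edgeR). Without E4.5 replicate 3 the log2 fold change was -3.42 (adjusted p = 0.00106), so the difference was also measured between libraries with a low sum of ovary markers. With any of the E0.5 mice left out the adjusted p lay between 0.0768 and 0.105.

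Fstl3, on chromosome 10 (79777272 to 79782630, plus strand), had 0.844, 1.08 and 0.278 FPKM in the E0.5 mice and 3.23, 2.55 and 0.713 FPKM in the E4.5 mice. Replicates 1 and 2 of E4.5 were the highest, and replicate 3 lay among the E0.5 mice. Its log2 fold change was -1.56 (SE 0.70, adjusted p = 0.318 by edgeR) and did not pass the adjusted p without that library either (-1.99, adjusted p = 0.0766).

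Of the antagonists of BMPs, Nog on chromosome 11 (89300638 to 89302332, minus strand) had 0.412, 0.710 and 0.479 FPKM in the E0.5 mice and 14.0, 14.7 and 2.05 FPKM in the E4.5 mice. Every E4.5 mouse was above every E0.5 mouse, and replicate 3 was the lowest of its day. The means were 0.533 ± 0.156 FPKM (SD, n = 3) and 10.3 ± 7.11 FPKM (SD, n = 3). The log2 fold change of -4.26 (SE 0.78) missed the threshold with an adjusted p of 0.0602 from edgeR, and without E4.5 replicate 3 it was -4.75 (SE 0.29, adjusted p = 0.00124).

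Grem1, on chromosome 2 (113746164 to 113758646, minus strand), had 0 counts in all 3 mice of E0.5. At E4.5 it had 0.0799, 0.0670 and 6.83 FPKM, which rest on 29, 23 and 2298 counts. Against a floor of 3 counts over the group, Grem1 was at least 774-fold lower in the E0.5 mice with all libraries and at least 25.9-fold lower there without E4.5 replicate 3. Its adjusted p was 0.191 from edgeR, and without that library its mean was below the filter and it was not tested. Most of the Grem1 reads thus came from the library with the ovary markers, and their part in it was not tested.

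Counted together, 2 of the 9 genes passed the adjusted p, beside 1.22% of all rows and 2.94% of protein-coding rows. By the criterion of the study, a log2 fold change of 1 or more in either direction at an unadjusted p under 0.05, 5 of 9 were called, namely Bmp2, Bmp7, Fst, Grem1 and Nog, all of them lower at E0.5. Over all rows 12.2% were called by this criterion and 5.82% were called lower at E0.5, and among protein-coding rows 8.26% were called lower. The groups did not overlap for 5 of 9 genes, beside 25.2% of all rows. The log2 fold change was below 0 for 8 of 9, with a median of -3.32 beside -0.01 over all rows. Both moved with the processing: without E4.5 replicate 3 the change was below 0 for 5 of the 8 genes that could be tested, Bmp4, Inhba and Inhbb being above 0, and the median was -2.04 beside 0.06 over all rows. With all libraries, 6 of 9 were below 0 with the replicate block (median -1.66) and 7 of 9 with limma on log2(FPKM + 0.1) (median -1.54). The criterion called 7 of the 8 without E4.5 replicate 3, of which Inhba and Inhbb were higher and the other 5 lower at E0.5, beside 14.4% of all rows. Without E4.5 replicate 3, 5 of the genes passed the adjusted p, which were Bmp2, Bmp7, Fst and Nog, lower at E0.5, and Inhbb, higher at E0.5, and 6.28% of all rows did so. With E0.5 replicate 1, 2 or 3 left out in turn, 0 of the 9 passed it by edgeR, where at most 0.0537% of all rows did so, and for Bmp2 and Fst the unadjusted p stayed between 0.000110 and 0.000414.

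The order of the 9 genes by FPKM differed between the days. At E0.5, Inhbb was the highest at 9.88 ± 1.66 FPKM (SD, n = 3), followed by Bmp4 at 3.71 ± 0.680 FPKM and Inhba at 1.53 ± 0.359 FPKM. Bmp7, Fst, Fstl3, Nog and Bmp2 followed between 1.18 and 0.528 FPKM, and from Inhba down to Bmp2 neighbours overlapped within 1 SD. At E4.5, the SD of Inhbb, Inhba and Grem1 exceeded the mean, and every neighbour in the order overlapped within 1 SD. In replicates 1 and 2 of E4.5 the highest of the 9 was Nog, followed by Fst in replicate 2 and by Bmp2 in replicate 1.

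The summed FPKM of the activin subunits Inhba and Inhbb was also set against that of their antagonists Fst and Fstl3 in each mouse, as a description without a test. The ratio was 5.54, 6.12 and 13.1 in the mice of E0.5. It was 0.228 and 0.369 in replicates 1 and 2 of E4.5, which had more antagonist than subunit transcript, and 5.33 in replicate 3. In that library the subunits summed to 89.9 FPKM and the antagonists to 16.9 FPKM, against 12 FPKM at most for the antagonists in the other E4.5 mice.

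**Figure D3:**
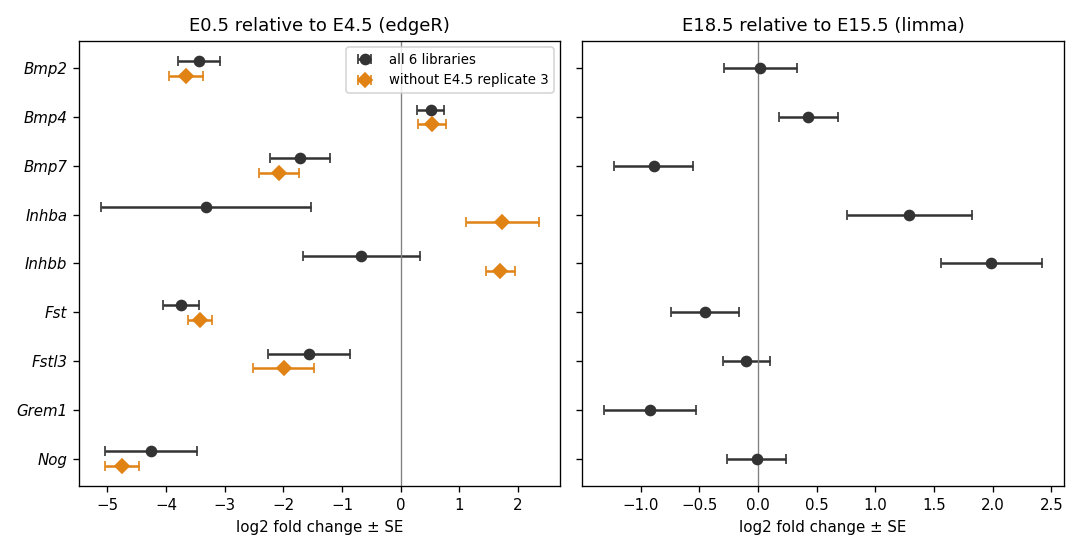
Log2 fold changes of the 9 genes with their SEs, for E0.5 relative to E4.5 (left, edgeR, with all 6 libraries as circles and without E4.5 replicate 3 as diamonds) and, on the right, for E18.5 relative to E15.5 (limma on log2(FPKM + 0.1)). The horizontal scales differ, and Grem1 is left out of the left panel because it has 0 counts at E0.5. Inhba moves from -3.32 to 1.73 and Inhbb from -0.67 to 1.70 without E4.5 replicate 3, and on the right Inhbb is the highest at 1.99.

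In the comparison of E18.5 with E15.5, the activin subunits were higher at E18.5. Bmp7 and Grem1 were lower at E18.5, at low levels, and the log2 fold changes of the other 5 genes lay between -0.45 and 0.43. Inhbb was 4.36 times and Inhba 2.22 times higher at E18.5 between the group means. None of the 9 passed the adjusted p from limma, though 4 had an unadjusted p under 0.05, and 8 of all 30928 rows tested, 0.0259%, passed it. Fold changes here are E18.5 relative to E15.5, from limma on log2(FPKM + 0.1), a scale that understates differences of genes with low values.

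Inhbb had 9.76, 12.8 and 17.7 FPKM in the E15.5 mice and 95.6, 50.9 and 29.3 FPKM in the E18.5 mice. All E18.5 mice were above all E15.5 mice, though the mice of E18.5 differed among themselves by more than the distance between the nearest mice of the 2 days. The log2 fold change was 1.99 (SE 0.43, unadjusted p = 0.00258, adjusted p = 0.167 by limma), and over the 14 alternative settings it ranged from 1.56 to 2.41, with adjusted p between 0.114 and 0.400.

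Inhba had 11.3, 3.18 and 3.78 FPKM in the E15.5 mice and 18.49, 14.4 and 7.72 FPKM in the E18.5 mice. The groups overlapped, because replicate 1 of E15.5 was above replicate 3 of E18.5. Inhba had a log2 fold change of 1.29 (SE 0.53, unadjusted p = 0.0448, adjusted p = 0.399 by limma), which ranged from 0.95 to 1.85 over the alternatives.

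The means of the activin antagonists were not higher at E18.5. Fst had 20.5, 17.1 and 21.8 FPKM in the E15.5 mice and 9.10, 15.9 and 20.4 FPKM in the E18.5 mice, with a log2 fold change of -0.45 (SE 0.29, adjusted p = 0.572 by limma). Within E18.5, the mouse with the most Inhbb (replicate 1) had the least Fst, and the mouse with the least Inhbb (replicate 3) had the most. Fstl3 had 3.83, 4.77 and 5.03 FPKM in the E15.5 mice and 3.40, 4.07 and 5.38 FPKM in the E18.5 mice, with a log2 fold change of -0.10 (SE 0.20, adjusted p = 0.871 by limma). Both groups of mice overlapped for each of these genes. The ratio of summed subunits to summed antagonists was 0.866, 0.732 and 0.802 in the mice of E15.5 and 9.13, 3.26 and 1.44 in those of E18.5, so that every E15.5 mouse was below 1 and every E18.5 mouse above it.

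Of the BMP ligands, Bmp2 had 1.02, 0.636 and 0.784 FPKM in the E15.5 mice and 1.06, 0.536 and 0.926 FPKM in the E18.5 mice, which overlapped fully, with a log2 fold change of 0.02 (SE 0.31, adjusted p = 0.989 by limma). Bmp4 had 1.63, 1.47 and 0.938 FPKM in the E15.5 mice and 1.78, 1.58 and 2.07 FPKM in the E18.5 mice, with a log2 fold change of 0.43 (SE 0.25, adjusted p = 0.525). Bmp7 was the lowest ligand, with 0.234, 0.399 and 0.441 FPKM in the E15.5 mice and 0.1002, 0.143 and 0.192 FPKM in the E18.5 mice. Its groups did not overlap, and its log2 fold change was -0.89 (SE 0.34, unadjusted p = 0.0369, adjusted p = 0.375 by limma).

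Of the BMP antagonists, Nog had 0.786, 0.971 and 1.31 FPKM in the E15.5 mice and 0.839, 1.04 and 1.11 FPKM in the E18.5 mice, which overlapped, with a log2 fold change of -0.01 (SE 0.25, adjusted p = 0.989 by limma). Grem1 was close to the filter, with 0.1998, 0.147 and 0.137 FPKM in the E15.5 mice and 0, 0.0745 and 0.0493 FPKM in the E18.5 mice. All mice of E18.5 were below those of E15.5, with a log2 fold change of -0.92 (SE 0.39, unadjusted p = 0.0497, adjusted p = 0.410 by limma).

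**Figure D4:**
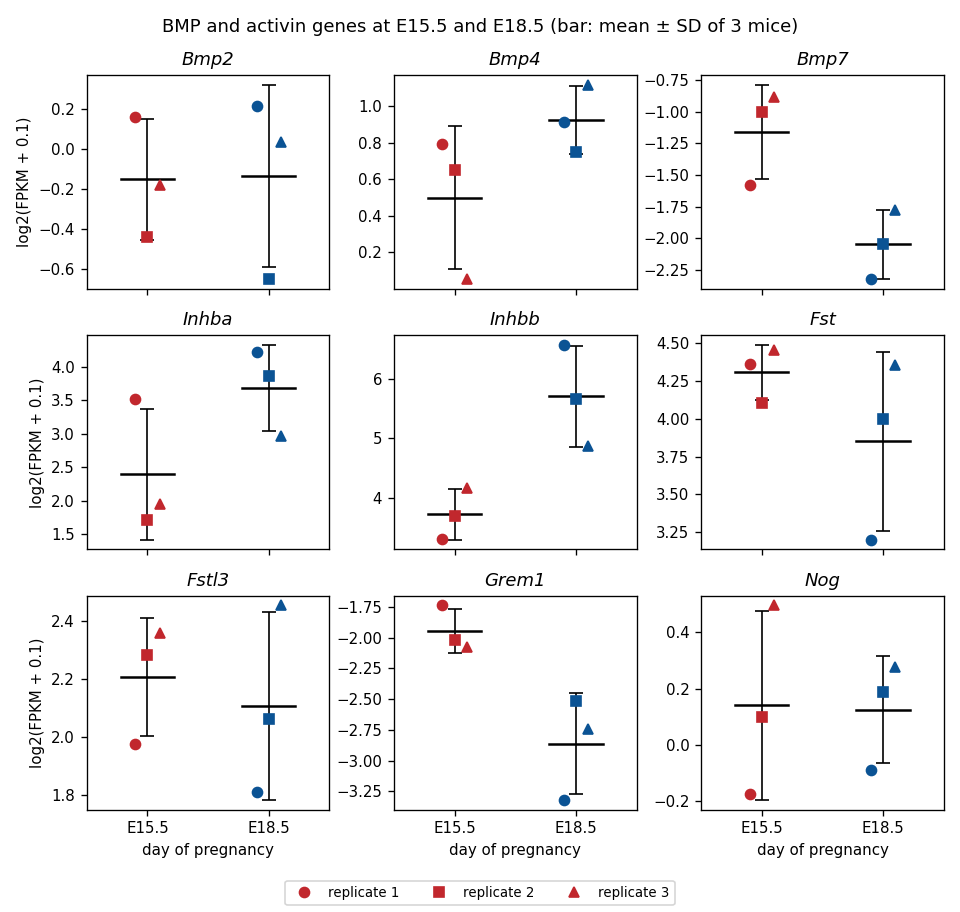
Expression of the 9 genes in the 6 libraries of the labor stage, as log2(FPKM + 0.1) on the vertical axis, whose range differs between panels, against the day of pregnancy. Symbols are single mice (circle, square and triangle for replicates 1, 2 and 3), the line is the mean of 3 mice on this scale and the bar its SD. Inhbb, Bmp7 and Grem1 are separated between the days, Inhbb upwards and the other two downwards at E18.5, and none of the 9 passed the adjusted p.

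By the study's criterion 2 of 9 genes were called at the labor stage, Inhba and Inhbb, both higher at E18.5, beside 6.05% of all rows called and 3.11% called higher. The count was 1 without replicate 2 or 3 of E15.5 and without replicate 1 or 2 of E18.5, and 3 without replicate 1 of E15.5 and without replicate 3 of E18.5, where Bmp7 was added as lower at E18.5. An unadjusted p under 0.05 was reached by 4 of 9, beside 12.2% of all rows, and the groups did not overlap for 3 of 9, beside 19.9% of all rows. The median log2 fold change of the 9 was -0.01 beside 0.02 over all rows. In order of level at E15.5, Fst led at 19.8 ± 2.43 FPKM (SD, n = 3), before Inhbb at 13.4 ± 4.02 FPKM, Inhba at 6.09 ± 4.53 FPKM and Fstl3 at 4.54 ± 0.629 FPKM, each overlapping the next within 1 SD. At E18.5, Inhbb led at 58.6 ± 33.8 FPKM, before Fst at 15.1 ± 5.69 FPKM and Inhba at 13.5 ± 5.43 FPKM, and only Fst and Inhba of these overlapped. Bmp4, Nog, Bmp2, Bmp7 and Grem1 held the lowest 5 places on both days, in that order.

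Tissues other than the uterus also varied among the late libraries. The 8 trophoblast markers with a row summed to 35.0, 4.20 and 3.93 FPKM in the E15.5 mice and to 56.7, 73.2 and 41.8 FPKM in the E18.5 mice, with most of the latter from Tpbpa, a spongiotrophoblast gene. The 7 decidua markers summed to 1369, 91.7 and 107 FPKM at E15.5, where replicate 1 had 1342 FPKM of Prl8a2, and to 60.7 to 79.6 FPKM at E18.5. The 6 yolk sac markers ranged from 1.53 to 785 FPKM in the E15.5 mice and from 94.1 to 538 FPKM in the E18.5 mice. Replicate 1 of E15.5 was also the mouse with the most Inhba of its day, and the trophoblast sum and the means of the activin subunits were both higher at E18.5. Single trophoblast markers went both ways. The means of Tpbpa, Prl2c2 and Syna were higher at E18.5, and those of Prl3d1, Prl3b1, Synb, Hand1 and Psg17 were lower. Krt8, a keratin of the epithelium, had 51, 94.1 and 133 FPKM in the E15.5 mice and 297, 225 and 244 FPKM in the E18.5 mice. The part of these markers in the values of Inhba and Inhbb was not tested.

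The effect of the day was then compared between the stages, as the log2 fold change of E0.5 relative to E4.5 minus that of E18.5 relative to E15.5, with limma over the 12 libraries on log2(FPKM + 0.1). Only differences within a table enter this test, since the tables were normalized separately. It was passed by 3 of 9 genes with Benjamini-Hochberg adjustment over 21393 rows paired by their Ensembl transcripts, beside 2.70% of these rows. Bmp2 had log2 fold changes of -3.14 and 0.02 on this scale, a difference of -3.16 (SE 0.44, adjusted p = 0.00622). Fst had -3.56 and -0.45, a difference of -3.11 (SE 0.44, adjusted p = 0.00658). Nog had -3.62 and -0.01, a difference of -3.61 (SE 0.84, adjusted p = 0.0482). For Bmp2 and Fst all 12 fits with a library left out stayed below 0.05, and for Nog this held for 1 of 12, the fit without E4.5 replicate 3, while the others reached up to 0.112. For Inhba and Inhbb the differences were -1.73 (SE 2.03, adjusted p = 0.697) and -1.57 (SE 1.20, adjusted p = 0.532), whose SEs were the largest of the 9 together with that of Grem1 (1.57). Leaving out E4.5 replicate 3, their differences were 0.49 (SE 0.84, adjusted p = 0.784) and -0.30 (SE 0.57, adjusted p = 0.809), so that the one for Inhba turned in sign.

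Other genes of the pathway were read from the same fits, as 80 genes in 6 lists by role, of which 67 could be tested at the implantation stage. By the study's criterion 14 of them were called, 5 higher and 9 lower at E0.5, beside 12.2% of all rows, and 1 passed the adjusted p, beside 1.22%. Their median log2 fold change was -0.19 beside -0.01 over all rows. With E4.5 replicate 3 left out, 65 could be tested, 9 were called higher and 9 lower at E0.5, beside 14.4% of all rows, 16 passed the adjusted p, beside 6.28%, and the median was 0.04 beside 0.06.

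The enzymes that cut the precursors or their inhibitors into active or inactive forms held 3 calls of 6, all lower at E0.5. Tll1, a tolloid-like protease that cleaves BMP antagonists of the chordin type, had 0.504, 0.864 and 0.441 FPKM in the E0.5 mice and 8.15, 8.03 and 1.76 FPKM in the E4.5 mice (log2 fold change -3.31, adjusted p = 0.0662 by edgeR). Pcsk5, a proprotein convertase, had 1.09, 1.39 and 0.896 FPKM in the E0.5 mice and 13.2, 11.5 and 3.10 FPKM in the E4.5 mice (log2 fold change -3.05, adjusted p = 0.0608 by edgeR). Pcsk6, of the same family and in a row merged with Gm45213 and Snrpa1, so that the value is not of Pcsk6 alone, had a log2 fold change of -1.08 (adjusted p = 0.0844 by edgeR). All 3 had no overlap between the days, and their adjusted p without E4.5 replicate 3 was 0.00212, 0.00127 and 0.0256. Like Nog, Tll1 and Pcsk5 were lowest at E4.5 in that library.

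The targets of BMP signaling held 3 calls of 12, all higher at E0.5, beside 3807 of all 59732 rows called higher. Msx2, a homeobox factor, had 1.31, 1.31 and 1.39 FPKM in the E0.5 mice and 0.208, 0.234 and 0.134 FPKM in the E4.5 mice. It was higher at E0.5 and passed the adjusted p, with a log2 fold change of 2.77 (SE 0.33, adjusted p = 0.0245 by edgeR). That call was lost with any one of the E0.5 replicates or E4.5 replicate 1 or 2 left out (adjusted p between 0.0642 and 0.134), with the replicate block (0.105) and with limma on FPKM (0.0657), while the adjusted p was 0.00554 without E4.5 replicate 3. Msx1, its relative in the uterine epithelium, had 57.2, 32.5 and 22.7 FPKM in the E0.5 mice and 7.13, 10.7 and 1.83 FPKM in the E4.5 mice (log2 fold change 2.51, adjusted p = 0.130, and 2.06, adjusted p = 0.0313, without E4.5 replicate 3). The Id genes, direct targets of BMP SMADs, were not called, with log2 fold changes between -0.71 for Id1 and 0.21 for Id4. Id1 was lower at E0.5 without overlap, with 6.14 to 8.91 FPKM at E0.5 and 10.1 to 13.9 FPKM at E4.5 (unadjusted p = 0.0262, adjusted p = 0.225 by edgeR). Id2, Id3 and Id4 overlapped between the days. Without E4.5 replicate 3, Atoh8 and Smad6, both named after their values were seen, were lower at E0.5, with log2 fold changes of -1.17 (adjusted p = 0.0337 by edgeR) and -0.90 (adjusted p = 0.0240). Msx1 and Msx2 were thus high on the day on which Bmp2 was low, and Krt8 was high on that day too, with 53.9 to 75.6 FPKM at E0.5 against 14.3 to 22.1 FPKM at E4.5. Krt18, the other keratin of the uterus marker list, overlapped between the days, with 63.7 to 76.4 FPKM at E0.5 and from 30.6 to 81.8 FPKM at E4.5 (log2 fold change 0.35, adjusted p = 0.638 by edgeR).

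The other ligands held 4 calls of 16 tested, all lower at E0.5. Of these, Bmp15, Inha and Amh had log2 fold changes of -6.20, -4.67 and -4.02 with all libraries. Without E4.5 replicate 3, Inha and Amh were at -0.12 and -0.45 and were not called, and Bmp15 was below the filter. Bmp3, named after its values were seen, had a log2 fold change of -2.75 (adjusted p = 0.0719 by edgeR), and -1.94 without that library (adjusted p = 0.0120). Without it Bmp6 was higher at E0.5 (log2 fold change 2.04, adjusted p = 0.0187 by edgeR) and Gdf15 was called higher (1.94, adjusted p = 0.202), both named after their values were seen, so that the list held 2 calls higher and 3 lower at E0.5 of 15 tested. The receptors held 3 calls of 16, which were Amhr2, the receptor of Amh, at -5.46, and Rgma, a BMP coreceptor, at 1.97. The remaining one was Acvr1c at 2.11, named after its values were seen because its mean was below 1 FPKM. Amhr2 was at 0.56 (adjusted p = 0.748) and not called without E4.5 replicate 3, and there Acvr1c was at 3.03 (adjusted p = 0.0163). Rgma had 16.6, 17.5 and 17.4 FPKM in the E0.5 mice and 5.62, 5.08 and 2.46 FPKM in the E4.5 mice (adjusted p = 0.0529 by edgeR, and 0.00327 without E4.5 replicate 3), without overlap, and Amhr2 had 23.9 FPKM in E4.5 replicate 3 and at most 0.201 FPKM elsewhere. The SMADs held 1 call of 6, Smad9, at -2.02 and at -1.27 without that library (adjusted p = 0.115), also with a mean below 1 FPKM and named after its values were seen. Smad1, likewise named, was lower at E0.5 without that library (log2 fold change -0.91, adjusted p = 0.0150 by edgeR), while with all libraries the common partner Smad4 was at -0.01. The other antagonists held none of 11, with 1 of 11 at an unadjusted p under 0.05, beside 10181 of all 59732 rows. Without E4.5 replicate 3 this list held 2 calls higher and 1 lower at E0.5 of 11 tested, beside 14.4% of all rows called. The adjusted p was passed by 3 of them, beside 6.28% of all rows. Chrd, or chordin, was lower at E0.5 (log2 fold change -1.53, adjusted p = 0.00656 by edgeR). Twsg1 was higher (0.75, adjusted p = 0.0327), and Chrdl1 was called higher (2.37, adjusted p = 0.137). These genes were named after their values were seen.

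**Figure D5:**
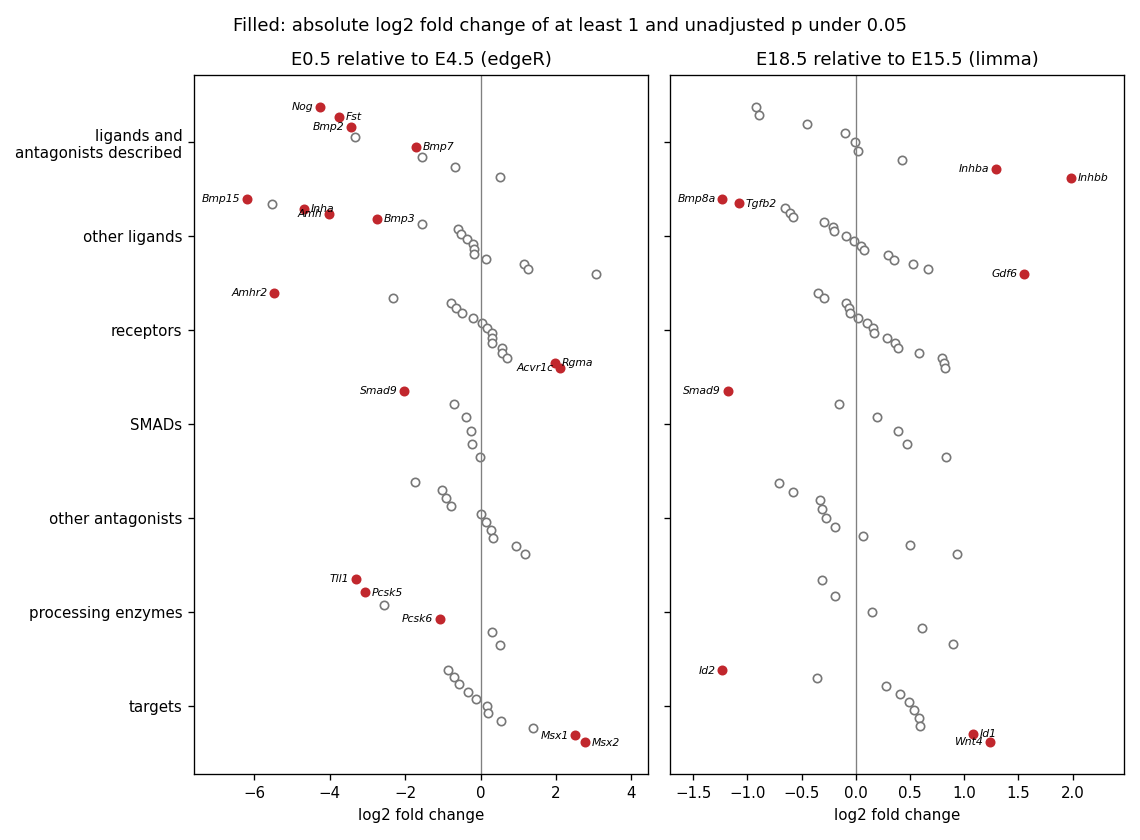
Log2 fold changes of the 9 genes and of the 6 lists of other pathway genes, for E0.5 relative to E4.5 (left, edgeR) and E18.5 relative to E15.5 (right, limma); each point is a gene, and points within a list are spread vertically in order of their value. Filled and named points have a log2 fold change of 1 or more in either direction and an unadjusted p under 0.05, and Grem1, with 0 counts at E0.5, is not drawn on the left. The filled points of the left panel number 17, of which the targets Msx1 and Msx2 and the receptors Rgma and Acvr1c are above 0, and the right panel has 9.

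At the labor stage 65 of the 80 genes could be tested and 7 were called by the study's criterion, 3 higher and 4 lower at E18.5, beside 6.05% of all rows. None passed the adjusted p from limma, 17 had an unadjusted p under 0.05, beside 12.2% of all rows, and the median log2 fold change was 0.10 beside 0.02 over all rows. The targets held 3 calls of 11. Id1 had 3.50, 5.03 and 6.84 FPKM in the E15.5 mice and 11.0, 12.4 and 8.69 FPKM in the E18.5 mice (log2 fold change 1.08, adjusted p = 0.188). Id2, of the same family, had 20.0, 17.1 and 12.8 FPKM in the E15.5 mice and 4.87, 7.05 and 9.67 FPKM in the E18.5 mice (log2 fold change -1.23, adjusted p = 0.177), so that Id1 and Id2 differed in opposite directions with no overlap in either. Wnt4, a Wnt ligand that acts after Bmp2 in the decidua, had a log2 fold change of 1.24 (adjusted p = 0.149).

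Of the other ligands of the labor stage, 3 of 17 were called. Bmp8a had 7.66, 6.16 and 6.56 FPKM in the E15.5 mice and 2.40, 2.82 and 3.30 FPKM in the E18.5 mice (log2 fold change -1.23, adjusted p = 0.0788 by limma), with replicates that differed little within a day. Tgfb2, which encodes transforming growth factor beta 2, had 89.0, 165 and 133 FPKM in the E15.5 mice and 47.2, 80.6 and 54.8 FPKM in the E18.5 mice (log2 fold change -1.08, adjusted p = 0.227). Gdf6, with a mean below 1 FPKM and named after its values were seen, had a log2 fold change of 1.55. Smad9 was the call of 6 SMADs, with 2.20, 1.31 and 0.907 FPKM in the E15.5 mice and 0.483, 0.561 and 0.626 FPKM in the E18.5 mice (log2 fold change -1.18, adjusted p = 0.242). It was not called without E15.5 replicate 1 (-0.87) or with a pseudocount of 1 (-0.64). No receptor of 16, no other antagonist of 10 and no processing enzyme of 5 was called, and the receptors included Bmpr2 and Bmpr1a at 0.10 and 0.17.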

How the data were processed

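RNA of whole uteri from 12 ICR mice was sequenced by the authors. Per the labels, the RNA was selected by poly(A) and sequenced on a NovaSeq, whereas the study's methods name ribosomal RNA removal and a HiSeq. The submitters' processing notes list Bowtie 0.12.2, HISAT2 2.0 and StringTie 1.3.0, with the builds mm8 and mm10, and the methods name Cutadapt, Bowtie2, Tophat2, StringTie and Ballgown. The authors deposited FPKM values in 1 gene table per stage, and for E0.5 and E4.5 also whole-number counts per row, whose counting tool and strand setting are not given in the sources used here. In GRCm38, all 9 rows overlap the gene so named by RefSeq.

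In the FPKM of E0.5 and E4.5, 0.0001 stands for 0 and was set to 0. Rows entered a test at a mean FPKM of 0.1 or more, with edgeR 4.0.16 (TMM, quasi-likelihood) on counts for E0.5 and E4.5, and with limma 3.58.1 (trend) on log2(FPKM + 0.1) for E15.5 and E18.5, in R 4.3.3, and p-values were adjusted over all rows by Benjamini-Hochberg. Rows without a gene name, 1.02% to 1.86% of counts, were kept as assembled loci. The stages were compared with limma. Scripts were also run on simulated data. Figures used matplotlib 3.10.9.

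The 9 genes, the pathway lists by role and the marker lists (uterus, decidua, ovary, adrenal, oviduct, trophoblast, yolk sac, fat, neutrophil and erythroid) were chosen with earlier results of these data known. Named are the 9 genes and, per role list and stage, each gene past the adjusted p and up to 3 with the largest log2 fold change among those called with a mean of at least 1 FPKM, and exceptions are marked. Of the listed genes, 2 are counted but neither named nor drawn, and are not reported here. Alternatives were other filters, scalings and pseudocounts, limma or DESeq2 1.42.0, a block for the replicate number and leaving out each library, and, chosen after seeing the data, rows without a gene name left out.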

Additional observations from a re-analysis of the deposited data

Results flagged for a closer look

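The effect of the day differed between the stages for 3 of the 9 genes by the test of the difference itself (limma over 12 libraries, Benjamini-Hochberg adjustment). Implantation minus labor, on the log2 scale, the difference was -3.16 for Bmp2 (adjusted p = 0.00622), -3.11 for Fst (adjusted p = 0.00658) and -3.61 for Nog (adjusted p = 0.0482). At E0.5 and E4.5 all 6 mice of each gene were separated by day, and in the late pair of days the groups overlapped for all 3. For Nog, 1 of 12 fits with a library left out stayed below 0.05.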

How the results depend on the processing

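Of 277 member values under an alternative, 236 kept their direction and side of the threshold, 3 kept their direction with no p, 20 lost and 5 gained an adjusted p under 0.05 in the same direction, and 13 turned in sign, of which 1, Inhbb without E4.5 replicate 3, also gained it. At the implantation stage the 2 genes past the adjusted p became 0 with a replicate block, 4 with DESeq2, which gave no p for 3 genes, and 0 to 5 with a library left out. They were 0 with E0.5 replicate 1, 2 or 3 left out in turn and 5 without E4.5 replicate 3. Inhba turned to 0.57 with the replicate block and to 1.73 without E4.5 replicate 3, and ranged from -3.92 to 1.73 with a library left out. Inhbb turned to 0.56 with the replicate block, to 0.42 with limma on FPKM and to 1.70 without E4.5 replicate 3, and ranged from -1.19 to 1.70 with a library left out. At the labor stage the 2 genes called by the study's criterion became 1 with 75th percentile scaling, 1 with limma without trend and 1 to 3 with a library left out. They were 1 without replicate 2 or 3 of E15.5 and without replicate 1 or 2 of E18.5, and 3 without replicate 1 of E15.5 and without replicate 3 of E18.5. Bmp2 turned to -0.05 with quantile normalization, to -0.04 with 75th percentile scaling and to -0.16, -0.07 and -0.13 without E18.5 replicate 1, E18.5 replicate 3 and E15.5 replicate 2, and ranged from -0.16 to 0.28 with a library left out. Without E18.5 replicate 1 Fstl3 turned to 0.05 and Nog to 0.10, and Nog turned to 0.17 without E15.5 replicate 3. With a library left out Fstl3 ranged from -0.27 to 0.05 and Nog from -0.17 to 0.17. The pathway genes called by the criterion numbered 14 at the implantation stage and 9 to 18 with a library left out, 9 being without E0.5 replicate 2, and numbered 7 at the labor stage, 5 to 10 with a library left out and 3 with a pseudocount of 1. The causes were not tested. No source says that a replicate number pairs mice, and deviations of same-numbered mice correlated between -0.06 and 0.02, so the block rests on a number only. With 3 mice a day, and FPKM without depth at the labor stage, the precision of levels near the filter, such as those of Grem1, is limited. Over all rows, calls past the adjusted p numbered 730 and ranged from 0 with the replicate block (edgeR, 8204 rows at an unadjusted p under 0.05) and 0 without E0.5 replicate 2 (7433 rows) to 5816 with DESeq2 at the implantation stage, and numbered 8 and ranged from 0 without E18.5 replicate 1 (limma, 2626 rows) to 29 at the labor stage.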

Other observations

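The protein-coding rows whose log2(FPKM + 0.1) was most like that of a gene described here, by Pearson's r over the 6 libraries of a table, are given as a description, since the points share 2 days and, at the implantation stage, a library that stands apart. At the implantation stage Bmp2 was most like Top2a (in a row merged with Gm23451, r = 0.999) and Kif20a (r = 0.998), both of cell division. Fst was most like Cdc42se2 (r = 0.999) and Ube2s (r = 0.998). Nog was most like the protease Tll1 (r = 0.997) and the histidine-degrading enzyme Hal (r = 0.996). At the labor stage Inhbb was most like the matrix protein gene Thbs2 (r = 0.999) and Dio2, a thyroid hormone deiodinase (r = 0.999), and Inhba like the phosphodiesterase gene Pde3a (r = 0.999) and Prkd3 (r = 0.991). These came from 11682 and 11566 rows compared.

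Among the remaining values of the marker lists, the 6 neutrophil markers summed to 348 to 537 FPKM at E0.5 and 3.84 to 20.8 FPKM at E4.5. These sums were mostly from Ltf, while S100a9 and Retnlg were at 0 in all 6 libraries. At E18.5 the same list summed to 162 to 251 FPKM against 38.0 to 65.9 FPKM at E15.5, with nearly all of the E18.5 sum from Ltf. The means of S100a8, S100a9 and Ngp were lower at E18.5, and those of Camp and Retnlg were higher at low levels. The 5 adrenal markers summed to 5.04 to 20.8 FPKM at E0.5, nearly all from Cyp21a1, and to at most 0.563 FPKM at E4.5. They summed to 178 to 352 FPKM at E15.5 against 87.1 to 168 FPKM at E18.5, mostly from Akr1b7. The 5 fat markers ranged from 3.55 to 63.8 FPKM over the 12 libraries and the 6 erythroid markers from 63.6 to 1500 FPKM. The decidua markers summed to 26.2 to 33.2 FPKM at E0.5 and to 53.5, 54.8 and 8.11 FPKM in the E4.5 mice, lowest in replicate 3. Its members went opposite ways, with Alpl at 11.3 to 16.5 FPKM at E0.5 and 1.29 to 1.36 FPKM at E4.5, and Hand2 at a mean of 2.07 FPKM at E0.5 and of 14.6 ± 11.7 FPKM (SD, n = 3) at E4.5, with 1.13 FPKM in replicate 3. At the implantation stage the 9 trophoblast markers summed to at most 0.833 FPKM in a library and the 6 yolk sac markers to at most 11.5 FPKM. The latter sum was that of E4.5 replicate 3, with 11.3 FPKM from Apoa4. At the labor stage the 9 ovary markers with a row summed to 18.6 to 28.7 FPKM and the oviduct markers to 9.89 to 21.4 FPKM. The 10 uterus markers summed to 1992 to 3392 FPKM at the labor stage.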
